A study of Mus musculus with 6 samples.

Results

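The transcription factor p53, its main antagonist Mdm2, a set of its transcriptional targets and the inhibitors of cyclin-dependent kinases encoded at the Ink4 locus were examined as one group of 10 genes, chosen by symbol. All 10 of the 10 symbols (Trp53, Mdm2, Cdkn1a, Cdkn2a, Cdkn2b, Ccng1, Gdf15, Tigar, Sesn1 and Bbc3) were found among the 12389 genes of the per-library table. The cells were vascular smooth muscle cells grown out from pieces of thoracic mouse aorta and harvested untreated, under basal culture, at passage 6 or below. Libraries of poly(A)-selected RNA were made from 3 cultures of wild-type mice (WT) and 3 cultures of mice with a smooth muscle-specific knockout of LRRC8A (KO). LRRC8A is the obligatory subunit of the anion channel that cells open when they swell. The submitters call the 3 cultures of a genotype independent biological replicates, and cellular stress was among their stated interests. The sources used here give no strain, age, Cre driver or clone, nor whether each culture came from its own mouse. The genotype field of all 6 samples names the wild type, so the groups rest on the sample titles.

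In unstressed cells p53 protein is kept low by Mdm2, a ubiquitin ligase whose own gene p53 activates. After DNA damage or other stress, p53 accumulates and activates genes that arrest the cell cycle (Cdkn1a), start apoptosis (Bbc3) or shift metabolism (Tigar, Sesn1). The Ink4 locus feeds into the same network: from Cdkn2a, separate first exons give p16Ink4a, which inhibits the cyclin D kinases, and p19Arf, which inhibits Mdm2, and primary smooth muscle cells are known to raise this locus as they age in culture.

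Upstream DNA is shown for 3 of the genes because the results turn on them: Cdkn1a as the classical p53 target, and Cdkn2a and Sesn1 as the members whose KO libraries all lay above the WT libraries. The sequences are from RefSeq, build GRCm38.p6, and run 5′ to 3′ on the gene's strand over the 250 bases before a start site. Cdkn1a is shown at its upstream start and Sesn1 at its downstream start, and the other start of each is not shown. In the Cdkn1a and Sesn1 lines the capitals mark exact matches to the 10-base p53 half-site consensus, and in the Cdkn2a lines they mark GGGCGG, the GC box, of which the downstream start has no copy before it and 1 after it (positions 24 to 29).
Cdkn1a, chr17:29090729-29090978, plus strand: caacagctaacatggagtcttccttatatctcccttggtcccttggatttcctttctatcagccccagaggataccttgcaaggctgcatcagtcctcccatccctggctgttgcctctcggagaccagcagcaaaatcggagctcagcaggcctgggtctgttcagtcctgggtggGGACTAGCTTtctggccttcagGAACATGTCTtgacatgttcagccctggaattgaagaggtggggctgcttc
Sesn1, chr10:41887189-41887438, plus strand: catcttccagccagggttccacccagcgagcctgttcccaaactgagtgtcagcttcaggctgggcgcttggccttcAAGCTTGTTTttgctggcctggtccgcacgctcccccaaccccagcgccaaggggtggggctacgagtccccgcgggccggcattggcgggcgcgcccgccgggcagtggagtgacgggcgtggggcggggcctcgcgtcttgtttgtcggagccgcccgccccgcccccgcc
Cdkn2a, upstream start, known for p19Arf, chr4:89294620-89294869, minus strand: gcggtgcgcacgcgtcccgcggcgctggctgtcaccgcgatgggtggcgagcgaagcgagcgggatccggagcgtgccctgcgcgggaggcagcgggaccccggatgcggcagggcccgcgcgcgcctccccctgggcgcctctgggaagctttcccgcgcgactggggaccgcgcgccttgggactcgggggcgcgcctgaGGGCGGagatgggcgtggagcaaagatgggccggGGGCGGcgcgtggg
Cdkn2a, downstream start, known for p16Ink4a, chr4:89282193-89282442, minus strand: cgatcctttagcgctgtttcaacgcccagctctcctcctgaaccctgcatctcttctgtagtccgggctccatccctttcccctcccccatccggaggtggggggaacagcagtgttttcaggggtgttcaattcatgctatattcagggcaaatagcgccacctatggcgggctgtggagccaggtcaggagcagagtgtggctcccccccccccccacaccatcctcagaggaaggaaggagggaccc

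All 10 genes had RefSeq promoter windows, 16 in total, each from 250 bases before to 50 bases after a start. A p53 half-site was found on either strand in 5 of these 16 windows, against 8.36% of all 32851 windows. The 5 belonged to Trp53 (positions -75 to -66 from the start), Mdm2 (-186 to -177), Ccng1 (-185 to -176), Sesn1 (-173 to -164) and Cdkn1a (-73 to -64 and -51 to -42). The pair of half-sites in the Cdkn1a window lay within 13 bases of each other, an arrangement held by 0.0731% of all windows and by 1 of the 16. This window belongs to the upstream start of Cdkn1a, and the window of its other start, 2790 bases downstream, had no half-site. For Sesn1 the half-site lay before the downstream start, and the window of the upstream start had none. The GC box was present in 11 of 16 windows, against 35.7% of all windows. Of the other motifs searched on both strands, TTTGAA occurred in 2 of 16 windows against 17.9% of all, TATAAA in 1 of 16 against 13.6%, and TGATGNAA in 0 of 16 against 3.97%. GC content differs between windows, with 77.0% at the upstream Cdkn2a start against a median of 52.7% over all windows. These matches describe sequence and do not show binding, and p53 sites further away or inside introns fall outside the windows. Known p53 targets are in the group by choice, so its share of half-sites is no independent evidence. Several windows can belong to 1 gene, and some of those of Bbc3 overlap, so the windows are not independent of each other.

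Values below are scaled reads, that is, reads divided by a factor for each library, and fold changes are KO over WT on the log2(value + 2) scale from limma. Within a genotype, values stand in the order of replicates 1, 2 and 3. Lrrc8a, the targeted gene, counted 2578, 2194 and 1221 scaled reads for WT against 868, 672 and 506 for KO, so its KO libraries all lay below its WT libraries, with residual signal in each. Estimated depth ran from 31.0 to 47.9 M reads per library. Of the smooth muscle markers 7 of 9 were among the genes analysed (Myocd and Des were not). Their summed level was highest in replicate 3 of both genotypes, at 205292 in WT and 106114 in KO, against 16629 to 32575 in the other 4 libraries. Acta2 and Tagln made up most of this sum, with log2 fold changes of 0.14 (SE 1.02) and 0.56 (SE 1.23). The other 5 markers were below 0, among them Myh11 at -2.63 (SE 1.16), and the median of the 7 was -0.78. By limma 0 of the 7 had an unadjusted p under 0.05. For Myh11 the authors' deposited table gave a log2 ratio of -3.57 at an FDR of 0.0826. Endothelial cells were represented by 1 of 8 markers (Kdr, 21.3 to 433), and leukocytes by 3 of 8 (Cd68, Lyz2 and Csf1r), whose summed level was 1233 to 1594 in WT and 392 to 1197 in KO. Pecam1, Cdh5 and Ptprc, which define those cells, were not among the genes analysed. The adventitial fibroblast markers (7 of 7) summed to 20349 to 41498 in WT and 22433 to 51038 in KO, and the mesothelial and epithelial markers (5 of 8) to 5562 to 9936 and 1098 to 6769. The share of reads from mitochondrial genes was 7.13% and 6.41% in replicate 1 of WT and KO, 4.95% and 4.24% in replicate 2, and 1.82% and 2.37% in replicate 3. The part of these differences in the results that follow was not tested unless a value is given.

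None of the 10 genes passed the test between genotypes, and the median log2 fold change of the 10 was -0.06, against 0.00 over all 12363 genes tested. By limma with Benjamini-Hochberg adjustment over all genes, 0 of 10 had an adjusted p under 0.05, as did 0.0% of all genes, and each of the 10 had an adjusted p of 0.999. The smallest adjusted limma p of any gene was 0.274, so the targeted gene Lrrc8a did not pass either. The authors' deposited table gave Lrrc8a a log2 ratio of -1.55 at an FDR of 0.0196. Not passing the adjusted limma test is therefore no evidence that a gene did not differ. At an unadjusted p under 0.05 limma gave 2 of 10, Cdkn2a higher and Tigar lower in KO, against 3.62% of all genes in either direction, 1.46% higher and 2.15% lower. The authors' deposited table gave 0 of the 10 a false discovery rate (FDR) under 0.05, against 0.525% of its genes, and gave 3 of 10 (Cdkn2a, Gdf15 and Tigar) a p under 0.05, against 5.3%. All KO libraries lay above all WT libraries for 2 of 10 genes (Cdkn2a and Sesn1; 3.91% of all genes) and below them for 1 of 10 (Tigar; 4.51%), and the genotypes overlapped for the other 7. With only 10 genes, 1 gene more or less moves these shares by more than the background itself, so the counts only say which genes stood apart. In bulk RNA, fewer cells of a type and less RNA per cell cannot be told apart.

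**Figure D1:**
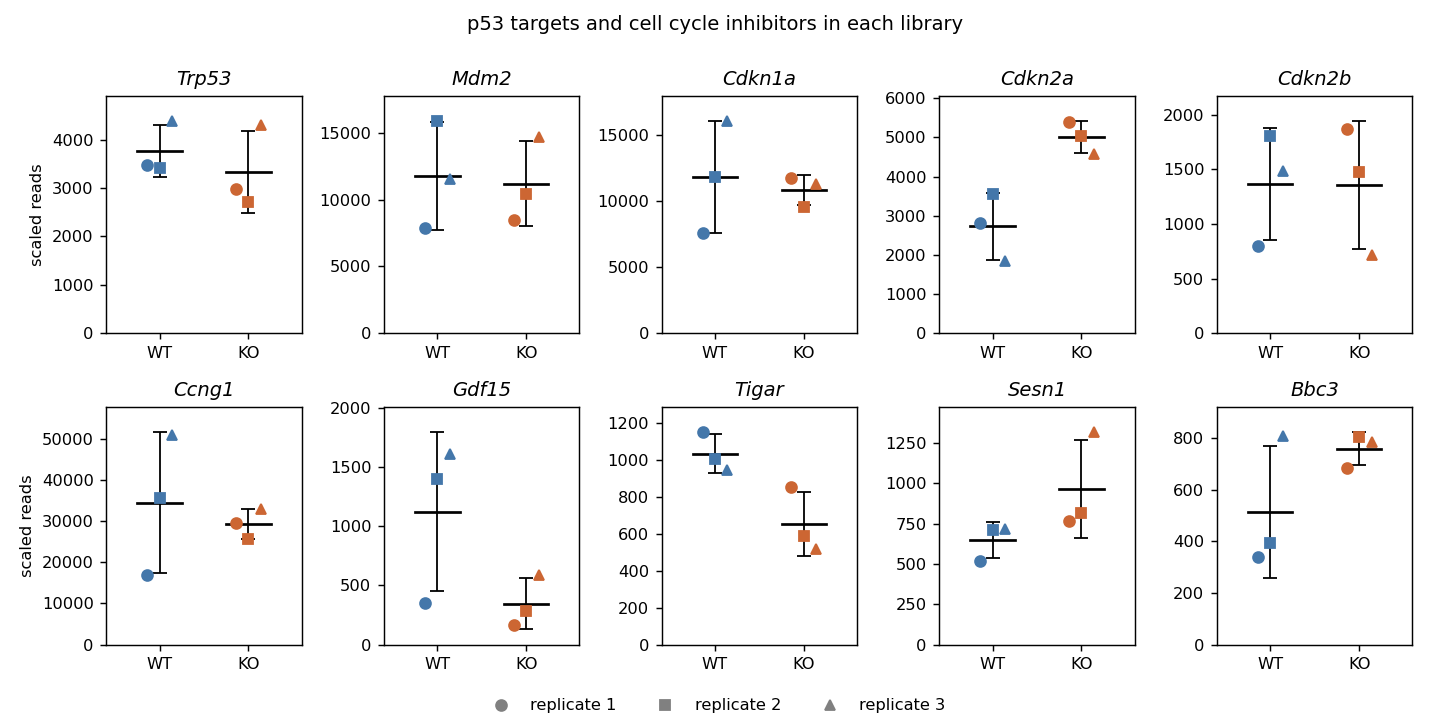
Scaled reads (linear axis from 0, a separate scale for each gene) of the 10 genes in 3 WT and 3 KO libraries; the marker shape gives the replicate number, the horizontal bar the mean and the whiskers the SD. The KO libraries of Cdkn2a (4583 to 5406) and Sesn1 (765 to 1317) lie above the WT libraries, those of Tigar (520 to 852) lie below, and the other 7 genes overlap.

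None of the 3 inhibitors of cyclin-dependent kinases among the 10 genes passed the adjusted test. Cdkn2a stood 1.90-fold higher in KO, with no overlap of the libraries, while Cdkn1a and Cdkn2b overlapped widely. Cdkn2a (ENSMUSG00000044303, GRCm38 chromosome 4, 89274471 to 89294653, minus strand) had 2805, 3552 and 1835 scaled reads in WT and 5406, 5032 and 4583 in KO. The lowest KO library stood above the highest WT library, and the KO values were the tighter group, at 5007 ± 412 on average against 2730 ± 861 (SD, n = 3). The log2 fold change was 0.92 (SE 0.27, 95% interval 0.29 to 1.56), with an unadjusted limma p of 0.0106, rank 100 of the genes tested, and an adjusted p of 0.999. The exact permutation p, two-sided, was 0.1, and 3 against 3 libraries cannot give a smaller one. The authors' deposited table gave a log2 ratio of 0.88 at p = 0.00466 and an FDR of 0.305. The annotation gives 2 coding transcripts of Cdkn2a, and their start sites in RefSeq lie 12427 bases apart. A value per gene sums both, so p16Ink4a and p19Arf transcripts cannot be told apart here.

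Cdkn2b, which encodes the related kinase inhibitor p15Ink4b, lies 11645 bases upstream of Cdkn2a (ENSMUSG00000073802, chromosome 4, 89306299 to 89311039, minus strand). Its scaled reads were 799, 1808 and 1489 in WT and 1874, 1474 and 717 in KO. KO replicate 1 was the highest of the 6 libraries and KO replicate 3 the lowest, so the KO values enclosed the WT values. WT averaged 1365 ± 516 and KO 1355 ± 587 (SD, n = 3), with a log2 fold change of -0.04 (SE 0.44, 95% interval -1.09 to 1.01). Its sign changed without KO replicate 3, to 0.36, without WT replicate 2, to 0.20, and without WT replicate 3, to 0.06. The ratio of Cdkn2a to Cdkn2b within a library, a measure chosen after the values were seen, was 3.51, 1.96 and 1.23 in WT and 2.88, 3.41 and 6.39 in KO. These ratios overlapped between genotypes, with a log2 difference of 0.96 and an exact two-sided permutation p of 0.3, so a different response of the 2 neighbouring genes was not shown.

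Cdkn1a, encoding p21, the arrest protein most closely tied to p53 (ENSMUSG00000023067, chromosome 17, 29090976 to 29100727, plus strand), had 7551, 11818 and 16045 scaled reads in WT and 11708, 9541 and 11258 in KO. The WT libraries spread over a 2.12-fold range and enclosed all KO libraries, which spread over 1.23-fold. WT averaged 11804 ± 4247 and KO 10836 ± 1143 (SD, n = 3). The log2 fold change was -0.06 (SE 0.31, 95% interval -0.78 to 0.66), which leaves differences below 2-fold in either direction unresolved. Its sign changed without WT replicate 3, to 0.19, and without KO replicate 2, to 0.03.

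Trp53 and Mdm2, the pair at the centre of the feedback loop, had differences smaller than the spread between cultures. Trp53 (ENSMUSG00000059552, chromosome 11, 69580359 to 69591873, plus strand) had 3478, 3418 and 4381 scaled reads in WT and 2989, 2714 and 4292 in KO. Replicate 3 was the highest of each genotype, and KO replicate 3 lay above WT replicates 1 and 2. WT averaged 3759 ± 540 and KO 3332 ± 843 (SD, n = 3), and limma gave -0.19 (SE 0.24, 95% interval -0.75 to 0.37) as the log2 fold change, with an unadjusted limma p of 0.441. Since p53 is controlled mainly through its stability, its transcript does not report the amount or activity of the protein.

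Mdm2 (ENSMUSG00000020184, chromosome 10, 117688875 to 117710758, minus strand) had 7871, 15884 and 11577 scaled reads in WT and 8460, 10403 and 14694 in KO. Replicate 1 was the lowest of each genotype and the KO range lay inside the WT range, at 11777 ± 4010 on average in WT and 11186 ± 3190 for KO (SD, n = 3). The log2 fold change was -0.05 (SE 0.33, 95% interval -0.84 to 0.73). Its sign changed without WT replicate 2, to 0.19, and without KO replicate 1, to 0.13. With library quality weights it was -0.57, with an unadjusted limma p of 0.0431 and an adjusted p of 0.257. Trp53, Mdm2 and Cdkn1a were the 3 of 10 genes whose 95% interval stayed within a 2-fold difference in both directions.

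**Figure D2:**
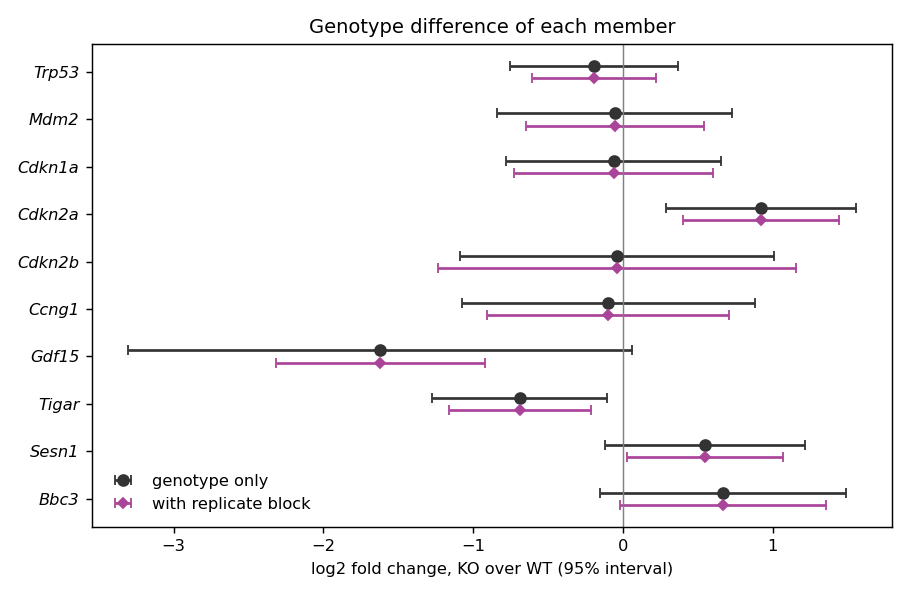
Log2 fold change (KO over WT, x axis) of the 10 genes with 95% intervals, from the limma model with genotype only (black circles) and with the replicate number as a block (purple diamonds). The interval without the block leaves out 0 for Cdkn2a (0.29 to 1.56) and Tigar (-1.27 to -0.10), and with the block also for Gdf15 (-2.32 to -0.92) and Sesn1; none passed after adjustment over all genes.

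The other p53 targets among the 10 pointed in different directions. Gdf15 and Tigar had lower means in KO, Sesn1 and Bbc3 higher means, and Ccng1, the most abundant, overlapped. Gdf15 encodes a secreted stress cytokine of the transforming growth factor beta superfamily, and it responds to the integrated stress response as well as to p53 (ENSMUSG00000038508, chromosome 8, 70629393 to 70632456, minus strand). Its scaled reads were 354, 1403 and 1611 in WT and 165, 282 and 584 in KO. WT replicate 1 was far below the other WT libraries and below KO replicate 3, so the genotypes overlapped, although KO was the lower library in each same-numbered pair. WT averaged 1123 ± 673 and KO 344 ± 216 (SD, n = 3), with a log2 fold change of -1.62 (SE 0.70, 95% interval -3.30 to 0.06), the largest of the 10 on the log2 scale, and an unadjusted limma p of 0.0564. Without WT replicate 1 the log2 fold change was -2.31, and without KO replicate 1 it was -1.19. The authors' deposited table gave a log2 ratio of -1.71 at p = 0.00936 and an FDR of 0.439. The summed leukocyte markers were also lower in KO (392 to 1197) than in WT (1233 to 1594). Among these markers only Lyz2 was apart between genotypes, while Cd68 and Csf1r overlapped. The part of leukocytes in the Gdf15 difference was not tested.

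Tigar, a phosphatase that lowers fructose-2,6-bisphosphate and so slows glycolysis (ENSMUSG00000038028, chromosome 6, 127085116 to 127109557, minus strand), had 1151, 1005 and 947 scaled reads in WT and 852, 589 and 520 in KO. Every KO library was below every WT library, and replicate 1 was the highest of each genotype. WT averaged 1034 ± 105 and KO 654 ± 175 (SD, n = 3), 0.62 of the WT level. A long noncoding gene, Platr31, overlaps Tigar on the opposite strand (127100297 to 127110467) and was not analysed here, and since the use of strand in counting is not known, its reads and those of Tigar cannot be told apart. The log2 fold change was -0.69 (SE 0.25, 95% interval -1.27 to -0.10), with an unadjusted limma p of 0.0271, an adjusted p of 0.999 and an exact permutation p of 0.1. In the authors' deposited table the log2 ratio was -0.66 at p = 0.0322 and an FDR of 0.798.

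Sesn1, a sestrin that restrains the growth kinase complex mTORC1 (ENSMUSG00000038332, chromosome 10, 41809935 to 41908424, plus strand), had 518, 708 and 714 scaled reads in WT and 765, 815 and 1317 in KO. All KO libraries were above all WT libraries, but KO replicates 1 and 2 by little, and KO replicate 3 carried much of the difference. WT averaged 647 ± 112 and KO 965 ± 305 (SD, n = 3), with a log2 fold change of 0.55 (SE 0.28, 95% interval -0.12 to 1.21). The unadjusted limma p was 0.0931 and the exact permutation p 0.1. Without KO replicate 3 the log2 fold change was 0.30.

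Bbc3, encoding the pro-apoptotic BH3-only protein PUMA (ENSMUSG00000002083, chromosome 7, 16308393 to 16318205, plus strand), had 338, 395 and 807 scaled reads in WT and 686, 806 and 784 in KO. WT replicates 1 and 2 were low, while WT replicate 3 was the highest library of all and level with KO. WT averaged 513 ± 256 and KO 758 ± 63.8 (SD, n = 3), with a log2 fold change of 0.67 (SE 0.35, 95% interval -0.16 to 1.49), an unadjusted limma p of 0.0971 and an exact permutation p of 0.4. Without WT replicate 3 the log2 fold change was 1.05.

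Ccng1, encoding cyclin G1, a p53 target that binds a phosphatase acting on Mdm2 (ENSMUSG00000020326, chromosome 11, 40748552 to 40755311, minus strand), had 16861, 35576 and 51111 scaled reads in WT and 29628, 25673 and 32905 in KO. The WT libraries covered a 3.03-fold range and enclosed the KO libraries, whose range was 1.28-fold. WT averaged 34516 ± 17149 and KO 29402 ± 3621 (SD, n = 3), with a log2 fold change of -0.10 (SE 0.42, 95% interval -1.08 to 0.88). Its sign changed without WT replicate 3, to 0.26.

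The spread of Ccng1, Cdkn1a and Bbc3 over the WT libraries had a common shape. WT replicate 1 was the lowest of the 6 libraries for 5 of the 10 genes (Mdm2, Cdkn1a, Ccng1, Sesn1 and Bbc3), for 13 of 29 other p53 targets (44.8%) and for 22.2% of all genes. WT replicate 3 was the highest for 5 of the 10 (Trp53, Cdkn1a, Ccng1, Gdf15 and Bbc3), for 20.7% of the other p53 targets and for 20.1% of all genes. These shares describe single libraries, and they were counted after the values had been seen.

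Same-numbered libraries of the 2 genotypes tended to deviate together, so the difference was also taken within each pair. No label gives this pairing, which was read from these same values, and the correlation for replicate 2 was only 0.15. The paired and blocked results below rest on it. KO was higher in all 3 pairs for 2 of 10 genes (Cdkn2a and Sesn1), against 15.7% of all genes, and lower in all 3 pairs for 3 of 10 (Trp53, Gdf15 and Tigar), against 15.0%. For Cdkn2a the log2 differences in pairs 1 to 3 were 0.95, 0.50 and 1.32, for Gdf15 -1.10, -2.31 and -1.46, and for Tigar -0.43, -0.77 and -0.86. Cdkn1a (0.63, -0.31 and -0.51), Ccng1 (0.81, -0.47 and -0.64) and Cdkn2b (1.23, -0.29 and -1.05) shared a pattern, higher in KO in pair 1 and lower in pairs 2 and 3. With the replicate number as a block in limma, 4 of 10 genes (Cdkn2a, Gdf15, Tigar and Sesn1) had an unadjusted p under 0.05, against 7.42% of all genes, and 0 of 10 had an adjusted p under 0.05, against 0.0%. The smallest blocked adjusted p of the 10 was that of Gdf15, 0.308 by limma, with an SE of 0.28 in place of 0.70.

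**Figure D3:**
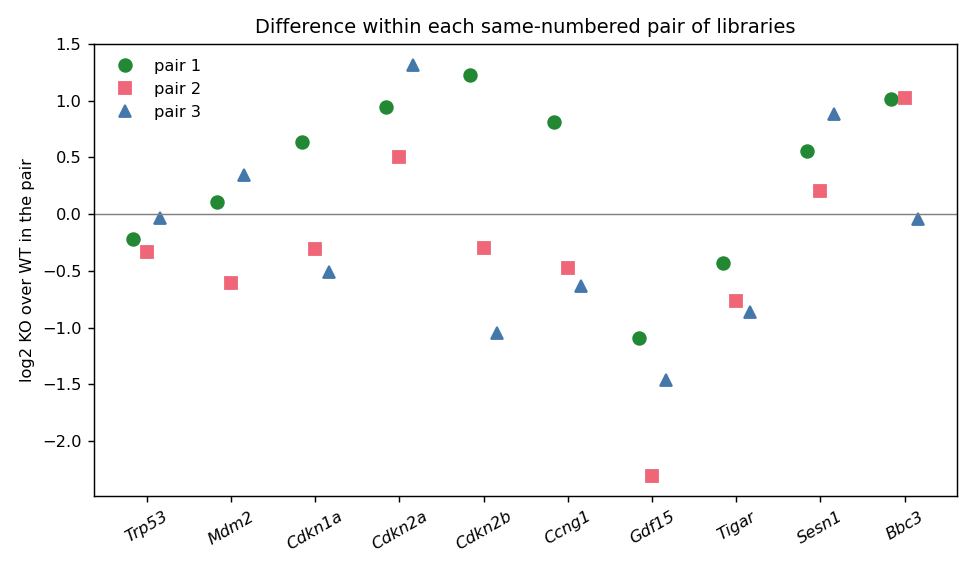
Log2 difference (KO over WT, y axis) of each of the 10 genes within the same-numbered pairs of libraries, pair 1 (green circles), pair 2 (red squares) and pair 3 (blue triangles). All 3 pairs lie above 0 for Cdkn2a and Sesn1 and below 0 for Trp53, Gdf15 and Tigar, while Cdkn1a, Cdkn2b and Ccng1 lie above 0 in pair 1 only.

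Per kilobase of exon, so that genes can be compared, Ccng1 had the highest level of the 10, with 9100 ± 3256 scaled reads per kb (SD over 6 libraries), at percentile 98.6 of the genes ranked. Cdkn2a (3301 ± 1182), Cdkn1a (3186 ± 797) and Mdm2 (2259 ± 641) followed, at percentiles 95.8, 95.6 and 93.4. Cdkn2b had 979 ± 356 and Trp53 876 ± 167, and below them came Gdf15 (396 ± 334), Bbc3 (299 ± 101), Tigar (231 ± 67.0) and Sesn1 (202 ± 67.7), the last at percentile 40.4. Among neighbours in this order the ranges over the 6 libraries were apart only between Ccng1 and Cdkn2a and between Mdm2 and Cdkn2b. The order of the means was not the same in each genotype. In WT, Cdkn1a (3322 ± 1195) stood before Cdkn2a (2330 ± 735) and Mdm2 (2317 ± 789), and in KO, Cdkn2a (4272 ± 352) stood before Cdkn1a (3050 ± 322) and Mdm2 (2201 ± 628; SD, n = 3). The 4 lowest genes were ordered Gdf15, Tigar, Bbc3 and Sesn1 in WT and Bbc3, Sesn1, Gdf15 and Tigar in KO. The lowest value of any member was the 165 scaled reads of Gdf15 in KO replicate 1, where 1 read was worth 1.07 scaled reads.

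Other genes of the p53 pathway had no common direction. Of 29 tested p53 targets outside the 10 genes, 14 were above 0 and 15 below, with a median log2 fold change of -0.02 and a range from -1.40 to 0.87. Leaving out libraries moved that median between -0.14 (without WT replicate 1) and 0.15 (without WT replicate 3). By limma 0 of 29 had an adjusted p under 0.05, and 1 had an unadjusted p under 0.05, against 3.62% of all genes. That gene was Gadd45a, a growth arrest and DNA damage protein, lower in KO at -1.04 (SE 0.42). Zmat3, an RNA-binding p53 target, had 4688, 5161 and 4377 scaled reads in WT and 5526, 5720 and 5187 in KO, the only gene of this list with no overlap, at a log2 fold change of 0.21 (SE 0.18). Eda2r, a death receptor relative, had 0.48 (SE 0.37), Phlda3, an inhibitor of AKT, 0.01 (SE 0.39), and the nuclease Aen 0.34 (SE 0.29). Of 21 tested regulators of p53 and DNA damage kinases, 13 were above 0 and 8 below, the median was 0.08, and 0 had an unadjusted p under 0.05. Mdm4, the partner of Mdm2, had -0.16 (SE 0.36) on the same scale, and the kinases Atm, Atr and Chek1 had -0.19 (SE 0.24), 0.08 (SE 0.20) and -0.01 (SE 0.44).

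Among the other inhibitors of cyclin-dependent kinases, 3 of 4 were tested and all 3 had positive values without passing. Cdkn2c, encoding p18Ink4c, had 319, 449 and 754 scaled reads in WT and 691, 739 and 1052 in KO, a log2 fold change of 0.77 (SE 0.36). Cdkn1b, encoding p27, had 0.33 (SE 0.23), and Cdkn2d, encoding p19Ink4d, 0.17 (SE 0.48). Of the relatives of the sestrin, cyclin G and Tigar genes, 4 of 7 were above 0 with a median of 0.16. Ccni, an atypical cyclin, had an unadjusted limma p under 0.05 at 0.50 (SE 0.20). Neither for Ccni nor for Ccng2, at 0.44 (SE 0.23), did the genotypes overlap. Sesn2, which also stands in the list of other p53 targets, had 0.16 (SE 0.31) and Sesn3 -0.56 (SE 0.38), so the sestrins differed in sign. The kinase relatives of Tigar had 0.31 (SE 0.28) for Pfkfb3, -0.06 (SE 0.37) for Pfkfb2 and 0.00 (SE 0.43) for Pfkfb4.

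Genes that act downstream of the inhibitors mostly had positive values, with a wide spread over the libraries of each genotype. Of 34 genes of replication and mitosis 32 were above 0, against 6230 of all 12363 genes tested. The median of the 34 was 0.42, and 0 had an unadjusted p under 0.05 in limma. The proliferation marker Mki67 had 736, 1887 and 5332 scaled reads in WT and 707, 4423 and 9529 in KO, so replicate 1 was low and replicate 3 high in both genotypes, and its log2 fold change of 0.67 had an SE of 1.10. Top2a, a DNA topoisomerase of dividing cells, had 0.62 (SE 0.91), and the mitotic cyclins Ccnb1 and Ccnb2 had 0.27 (SE 0.91) and 0.11 (SE 0.83). The median of this list was -0.10, 0.74 and 0.74 in pairs 1 to 3. It was 1.26 without KO replicate 1, -0.19 without KO replicate 3, and -0.03 without WT replicate 1. Summed over the list, the level was 22422, 37223 and 77496 in WT and 21056, 62793 and 129171 in KO, and the part of these differences in the levels of the inhibitors was not tested. Of 23 tested cyclins, their kinases and RB and E2F genes 20 were above 0, with a median of 0.27 and 0 at an unadjusted p under 0.05. Ccnd1 had 0.67 (SE 0.49), Ccnd2 0.09 (SE 0.28), Ccnd3 0.10 (SE 0.29) and Cdk4, the kinase that p16Ink4a inhibits, 0.48 (SE 0.25).

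Polycomb genes, known for silencing the Ink4 locus, and the demethylases Kdm6a and Kdm6b, which oppose that silencing, had together a median of 0.02 over 18 tested genes, 11 above 0 and 7 below, and by limma none (0) had an unadjusted p under 0.05. Bmi1, the best known repressor of the locus, had 0.25 (SE 0.18), Pcgf2 0.01 (SE 0.30) and Cbx2 0.12 (SE 0.37). The BCL2 family, on which PUMA acts, and the caspases had together a median of 0.18 over 18 tested genes with 12 above 0, and 0 at an unadjusted p under 0.05. Bcl2 had 0.51 (SE 0.53), Bcl2l1 -0.17 (SE 0.28), Bcl2l2 -0.23 (SE 0.32) and Mcl1 -0.04 (SE 0.26).

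Genes associated with senescence, the state that p16Ink4a marks, had mostly negative values while Cdkn2a had a positive one. Of 20 tested, 6 were above 0 and 14 below, against 6230 above and 6133 below of all 12363 genes tested. Lmnb1, Hmgb1 and Hmgb2, which senescence lowers, were among those above 0. The median of the 20 was -0.61, which was -0.25 without WT replicate 1, -0.20 without WT replicate 2 and -0.28 without KO replicate 3. In pairs 1 to 3 the median was -0.81, -0.55 and 0.25, so pair 3 had the other sign. By limma 0 of 20 had an adjusted p under 0.05, and 6 had an unadjusted p under 0.05, against 3.62% of all genes. Of the 6, 1 was higher and 5 were lower in KO, against 1.46% and 2.15% of all genes. The 5 were the lysosomal galactosidase Glb1 at -0.79 (SE 0.20), the growth factor binding protein Igfbp3 at -4.37 (SE 0.99), the plasminogen activator Plau at -0.81 (SE 0.27), and the chemokines Ccl7 at -2.27 (SE 0.76) and Ccl2 at -2.49 (SE 0.95). Glb1 had 3796, 3522 and 3937 scaled reads in WT and 2442, 2342 and 1763 in KO, with no overlap. Hmgb1, a chromatin protein lost from senescent nuclei, was higher in KO at 0.61 (SE 0.23), and Lmnb1 and Hmgb2, which decline in senescent cells, had 0.44 (SE 0.54) and 0.50 (SE 0.89). Cytokines of this list are also made by leukocytes, whose summed markers were lower in KO, although Cd68 and Csf1r overlapped between genotypes. The part of those cells was not tested. The senescence list was chosen with earlier results of these data known, so its counts and direction are no independent evidence.

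Genes of the ATF4 and stress pathways that can induce Gdf15 had 7 of 8 values below 0, against 6133 of all 12363 genes tested. The median of the list was -0.77, and -0.96, -0.84 and -0.77 in pairs 1 to 3. It was -0.50 without KO replicate 1 and -1.20 without WT replicate 3. In limma 0 of 8 had an adjusted p under 0.05 and 3 an unadjusted p under 0.05, all lower in KO, against 2.15% of all genes. They were the stress-induced factor Atf3 at -2.23 (SE 0.51), the glutathione-degrading enzyme Chac1 at -1.22 (SE 0.40) and the stress protein Nupr1 at -1.08 (SE 0.26). Atf3 had 409, 363 and 181 scaled reads in WT and 66.3, 83.2 and 43.4 in KO, and Nupr1 4166, 4050 and 2376 against 1769, 1531 and 1577, both without overlap. Atf4 itself, which is controlled mainly at translation, had 0.03 (SE 0.19), Ddit3 -0.47 (SE 0.51) and Trib3 -1.17 (SE 0.51). In the authors' deposited table Atf3 (log2 ratio -2.31) and Nupr1 (-1.12) passed an FDR of 0.05, and apart from Lrrc8a they were the only genes of all the lists to do so. The list was chosen with earlier results of these data known, so its direction is no independent evidence. The part of these genes in the Gdf15 difference was not tested.

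**Figure D4:**
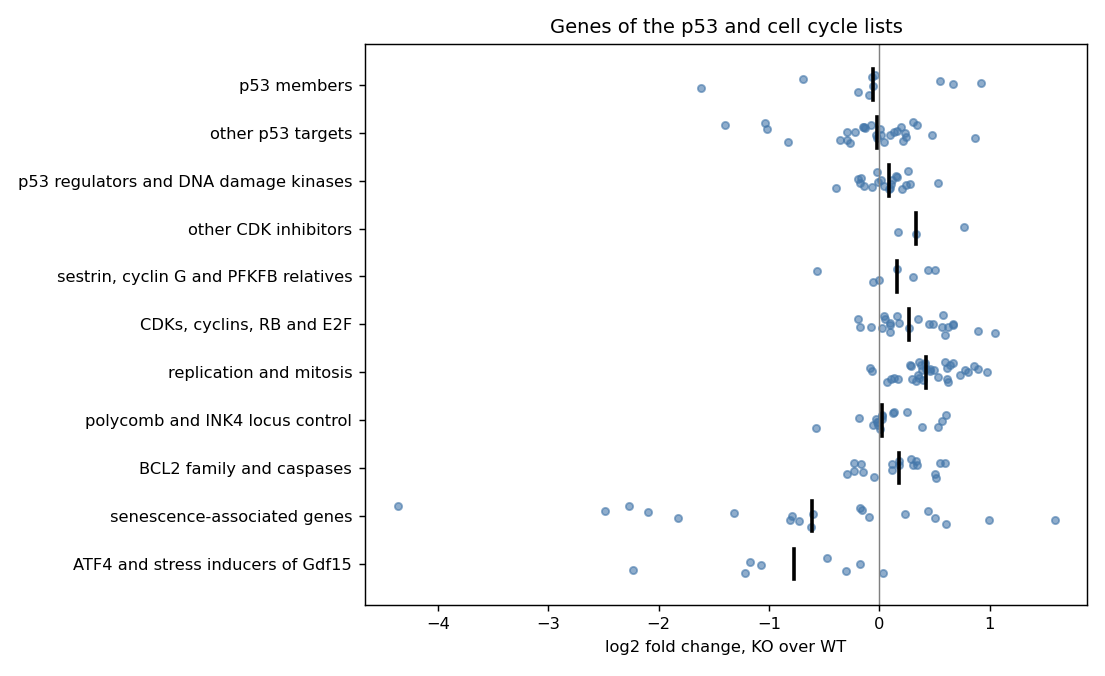
Log2 fold change (KO over WT, x axis) of each tested gene of the 10 genes (top row) and the 10 pathway lists; each dot is 1 gene and the black bar is the list's median. The medians run from -0.77 for the ATF4 and stress inducers of Gdf15 to 0.42 for replication and mitosis, and other p53 targets centre at -0.02.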

How the data were processed

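Messenger RNA of 6 cultures, 3 WT and 3 KO, was sequenced as stranded paired-end libraries, per the labels' protocols. The submitters' processing notes name STAR, Partek, DESeq2 and the builds GRCm39 and mm39, without roles. Neither their settings nor the use of strand in counting are given. The deposited coordinates match GRCm38, since 12341 of 12385 genes share their start with the GENCODE M21 annotation, and are given so. There, 3 of the 10 genes overlap another annotated gene (Cdkn1a, Tigar and Sesn1, each with a noncoding or unproven gene that was not analysed here), and the authors' counting of shared reads is not known.

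The deposited per-library values are a scaled signal, not raw counts. They are estimated reads divided by a library factor, and of the values up to 50 reads 83.0% to 92.8% per library lay within 0.05 of a whole read, so whole reads were not recovered. A test for counts could therefore not be used, and limma was. Per the file headers, the authors' deposited comparison table holds a log2 ratio, a p-value with its FDR, and group means from which a fold follows. A ratio column of that table was not used.

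limma 3.58.1 (R 4.3.3, statmod 1.5.0) was fitted with genotype alone on log2(value + 2), with mean trend and robust variances, keeping the 12363 genes that reached 10 scaled reads in 3 or more libraries. All p-values are two-sided, with Benjamini-Hochberg adjustment over these genes and a threshold of 0.05. They measure the spread between cultures, and the median residual SD was 0.36 on the log2 scale. Deviations from the group mean were correlated across genes between WT and KO libraries of the same number (0.43, 0.15 and 0.39 for replicates 1, 2 and 3). The numbers were therefore taken as a pairing, which comes from the data and not from a label. It enters only the blocked fit and the differences within pairs, and all other values are from the unpaired fit.

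The members and lists were chosen with earlier results of these data known, so their counts and directions are no independent evidence. Named were all 10 members, all genes of lists under 9, of longer lists the first 4 and those with an unadjusted p under 0.05, the highest markers and Lrrc8a. One gene that this rule names is not reported here. Motifs were searched in the RefSeq promoter table of 32851 windows.

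Alternatives were other scalings (equal totals, TMM, quantile), pseudocounts of 1 and 10, a minimum of 50 and none, the other per-library table, plain variances, the replicate block, weights for library quality, and the omission of each library or, added after the data were seen, each same-numbered pair.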

Additional observations from a re-analysis of the deposited data

How the results depend on the processing

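None of the 10 genes passed the adjusted limma threshold under any of the 20 alternatives, and the smallest adjusted p of any of them was 0.116, for Gdf15 with library quality weights. At an unadjusted p under 0.05 between 1 and 5 of the 10 were counted, and Cdkn2a was among them in 19 of 20 alternatives, the exception being without replicate 1 of both genotypes, at 0.0528. Over all genes, library quality weights gave 30 past the threshold, and leaving out libraries gave 0 to 1 (1 without KO replicate 1). The weights gave WT replicate 2 a weight of 7.99 and KO replicate 3 one of 0.361, and their estimation had not converged. Trp53, Cdkn2a (0.58 to 1.14), Gdf15 (-2.31 to -1.19), Tigar (-0.89 to -0.54), Sesn1 and Bbc3 kept their sign throughout. The cause of the following changes of sign was not tested. Mdm2 was 0.0033 with quantile normalization. With library quality weights it was -0.57. Leaving out 1 library or a same-numbered pair moved Mdm2 from -0.32 to 0.22, Cdkn1a from -0.41 to 0.19, Ccng1 from -0.55 to 0.26 and Cdkn2b from -0.67 to 0.47. With the replicate block 0 genes passed, so it changed no call. With 3 cultures per genotype the 95% intervals of the 10 genes were 0.56 to 1.68 wide on either side on the log2 scale. These widths belong to an unadjusted p of 0.05. The intervals of Cdkn2a (0.29 to 1.56) and Tigar (-1.27 to -0.10) left out 0, and both genes still failed the adjusted threshold. Differences of these sizes, and larger ones, could therefore be missed.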
